A study of Sorghum bicolor with 12 samples.

Results

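The transcripts described here are the mRNAs whose level was at least doubled in sorghum (Sorghum bicolor) shoots grown with little sulfate. They were chosen from the RNA-seq counts themselves, scaled to the library total as CPM (the count over the total, times 1000000). A transcript was included when its mean over the 3 sulfur-deficient shoots was 5 CPM or more, that mean was at least 2 times the mean of the 3 control shoots, and every deficient shoot lay above every control shoot. A pair of neighbouring transcripts, Sobic.001G470600.1 and Sobic.001G470800.1, also met these conditions and was left out. This gave 46 transcripts out of 34210 in the RNA table, or 0.326% of the 14100 transcripts with a mean of 5 CPM or more in deficient shoots. The RNA values are therefore a description of how these transcripts were chosen and carry no test. Each transcript stood for a different gene.

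All plants were of the inbred line BTx623, the line used for the sorghum reference genome, and were sampled as whole shoots 13 days after sowing. Sulfur-deficient seedlings received a nutrient solution with 10 µM sulfate by the growth protocol, whereas the series' design text gives 0 µM, and control seedlings received 500 µM. Both treatments lasted 8 days, after 5 days of germination on distilled water. The control solution was a diluted Hoagland's medium, and the deficient one was made by mixing a little of it into a version with magnesium chloride in place of magnesium sulfate. One powdered shoot gave 1 RNA-seq library and 1 Ribo-seq library, so that 6 shoots gave 12 libraries. In whole shoots, more RNA per cell and a larger share of cells that hold the RNA cannot be told apart.

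Plants take up sulfur as sulfate and reduce it to build cysteine, from which methionine, glutathione and many defence compounds are made. When sulfate runs short, plants are known to raise the mRNAs of sulfate transporters and of enzymes that assimilate sulfate or release sulfur from stored compounds, and to lower the making of some sulfur-rich products. RNA-seq counts mRNA fragments, while Ribo-seq counts the short pieces of mRNA that ribosomes shield from RNase, so that footprints follow how much of an mRNA is being translated. The deposited tables name transcripts by ID alone. Of the 46 transcripts 0 matched an entry of the reference gene table, so no gene name or function is given for any of them, and whether the tissue carried the markers of a shoot could not be checked.

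Total counts ran from 13995665 to 18475153 in the RNA libraries, and from 6328659 to 11066815 in those of footprints. The 46 transcripts together made up 0.534%, 0.825% and 0.816% of the RNA counts in deficient shoots 1, 2 and 3, against 0.214%, 0.204% and 0.235% in control shoots 1, 2 and 3. Their share of the footprints was 0.692%, 0.948% and 0.988% in deficient shoots and 0.322%, 0.301% and 0.366% in control shoots. Much of these sums came from Sobic.003G190100.1 and Sobic.001G094300.1. In footprints these had 3072 and 1972 of the 6917 CPM in deficient shoot 1, and 1380 and 1130 of the 3218 CPM in control shoot 1. In RNA they had 1597 and 958 of 5336 CPM in deficient shoot 1, and 760 and 464 of 2145 CPM in control shoot 1. In both assays the share in deficient shoot 1 lay between those of the control shoots and those of the other deficient shoots. The groups did not overlap, which in RNA follows from the choice itself.

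The ratio of mean RNA level, deficient over control, had a median of 3.21 over the 46 transcripts, with quartiles of 2.55 and 7.84. Of these, 25 were at least 3-fold higher, 21 at least 4-fold and 10 at least 10-fold. Mean levels ran from 5.19 to 2098 CPM in deficient shoots and from 0.0204 to 816 CPM in control shoots. The highest ratios belonged to transcripts that were nearly absent from control shoots.

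**Figure D1:**
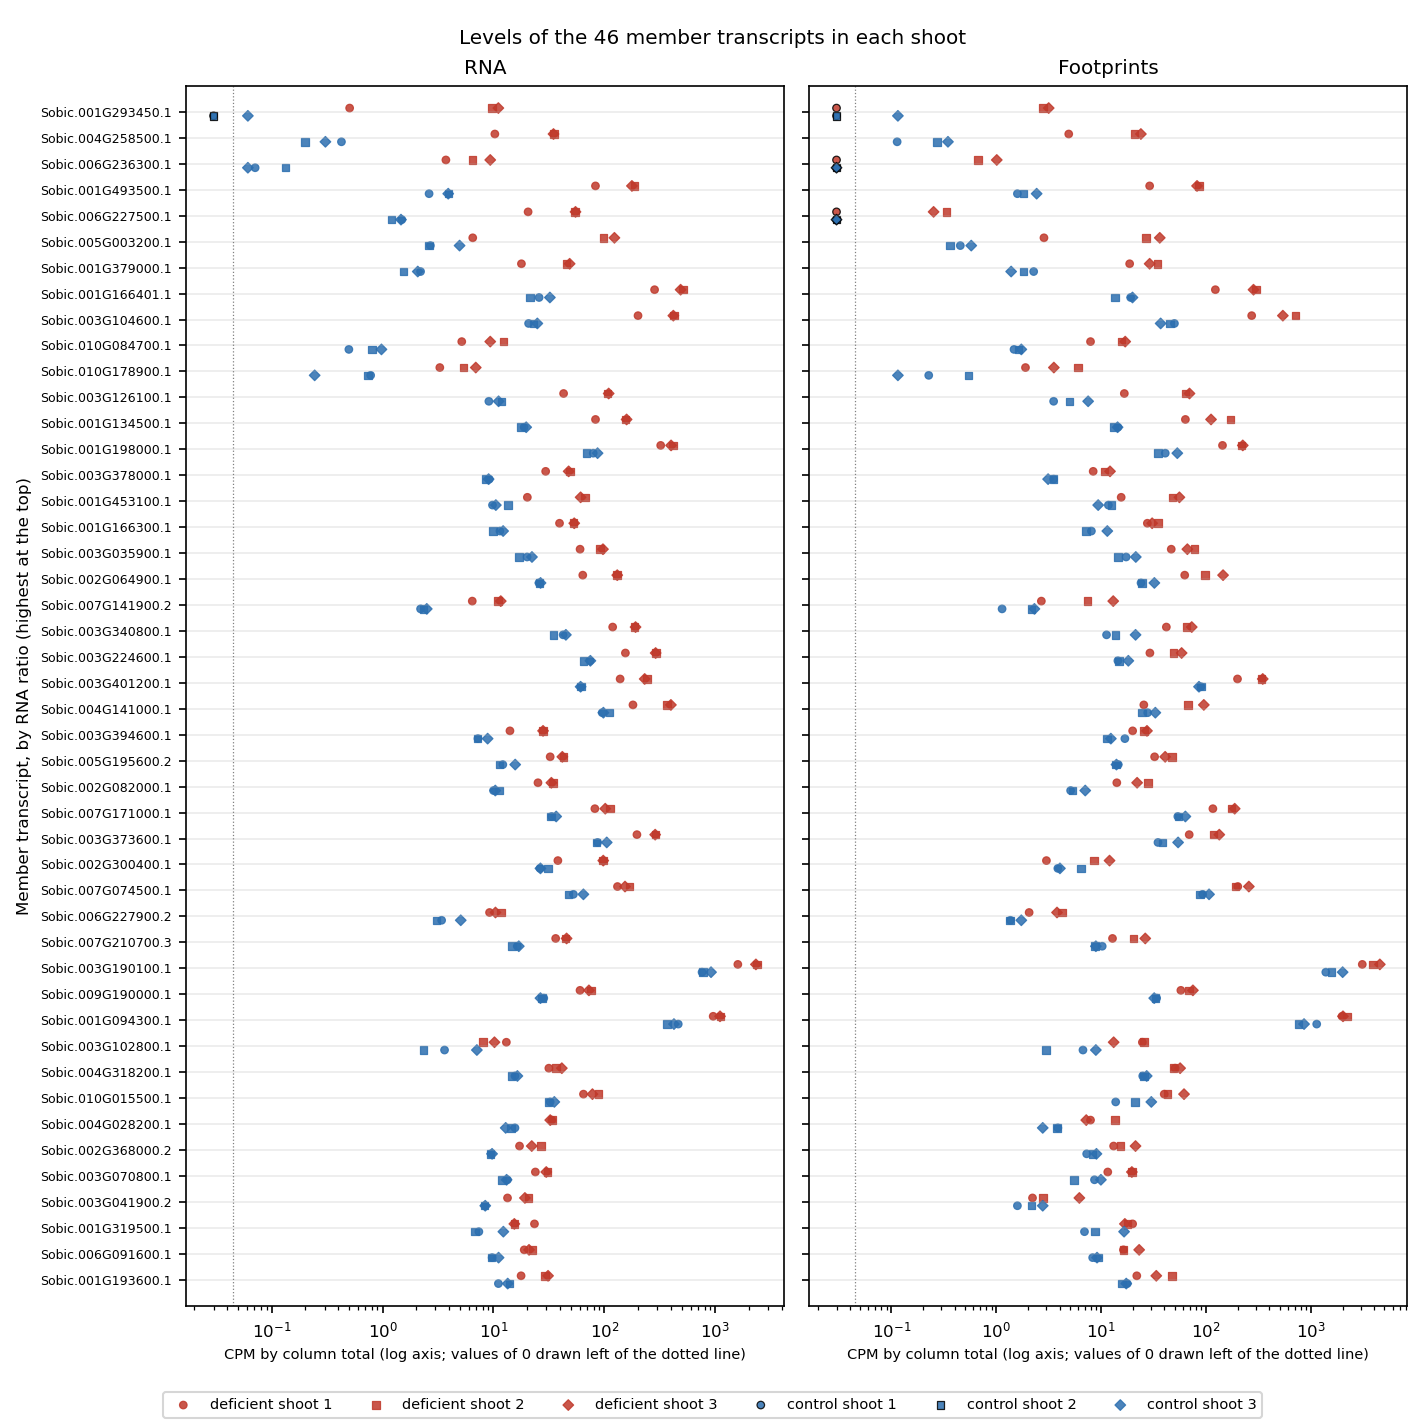
Level of each of the 46 transcripts in RNA (left) and in footprints (right), in CPM on a log axis, with 1 point per shoot and transcripts ordered by RNA ratio. Deficient shoots (red) lie right of all control shoots (blue) in RNA for all 46, as the choice requires, and in footprints for 40; the circle of deficient shoot 1 is the lowest red point in most rows.

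Sobic.001G293450.1, with a coding length of 267 bases, had 0.506, 9.69 and 11.1 RNA CPM in deficient shoots 1, 2 and 3 and 0, 0 and 0.0611 CPM in control shoots. The control value rests on 1 read in 1 shoot. The ratio of the summed counts, 342 against 1, was 321, with an exact 95% counting interval of 57.3 to 12722 that covers counting error only.

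Sobic.004G258500.1 had 10.3, 35.2 and 34.8 RNA CPM in deficient shoots and 0.426, 0.201 and 0.306 CPM in control shoots. This was an 86.0-fold ratio of means on 14 control reads. The lowest deficient shoot was well clear of the highest control shoot.

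Sobic.006G236300.1 stood at 3.73, 6.50 and 9.36 RNA CPM in deficient shoots and at 0.0711, 0.134 and 0.0611 CPM in control shoots, a ratio of 73.6 on 4 control reads. Sobic.001G493500.1 had 83.2, 187 and 177 RNA CPM in deficient shoots against 2.63, 3.95 and 3.91 CPM in control shoots, a ratio of 42.6. For this transcript deficient shoots 2 and 3 were close together and shoot 1 was at less than 50% of them.

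Sobic.006G227500.1 reached 20.5, 54.4 and 54.9 RNA CPM in deficient shoots, against 1.49, 1.21 and 1.47 CPM in control shoots, a ratio of 31.2. Sobic.005G003200.1 had 6.51, 98.2 and 123.3 RNA CPM in deficient shoots and 2.70, 2.61 and 4.95 CPM in control shoots, a ratio of 22.2. Deficient shoot 1 exceeded control shoot 3 only narrowly here, so that the ratio rests on shoots 2 and 3.

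Sobic.001G379000.1 had 17.9, 45.8 and 48.7 RNA CPM in deficient shoots and 2.20, 1.54 and 2.08 CPM in control shoots, a ratio of 19.3. Sobic.001G166401.1 had 284, 510 and 487 RNA CPM in deficient shoots and 25.8, 21.3 and 32.3 CPM in control shoots, a ratio of 16.1. Among the transcripts above a 16-fold ratio, it had the highest RNA level per coding length in deficient shoots, 399 CPM per 1000 coding bases.

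The 6 transcripts with the highest mean RNA CPM in deficient shoots, Sobic.001G166401.1 among them, had ratios of 2.53 to 16.1. Sobic.003G190100.1 had 1597, 2373 and 2324 RNA CPM in deficient shoots and 760, 772 and 916 CPM in control shoots, a ratio of 2.57. Sobic.001G094300.1 had 958, 1110 and 1103 RNA CPM in deficient shoots and 464, 367 and 424 CPM in control shoots, a ratio of 2.53. In both transcripts the lowest deficient shoot stood well above the highest control shoot.

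Sobic.001G198000.1, with a coding length of 336 bases, had 322, 415 and 399 RNA CPM in deficient shoots and 79.4, 69.0 and 86.9 CPM in control shoots, a ratio of 4.83. Sobic.003G104600.1 had 201, 424 and 419 RNA CPM in deficient shoots and 20.8, 22.98 and 24.9 CPM in control shoots, a ratio of 15.2. Sobic.004G141000.1 had 181, 365 and 398 RNA CPM in deficient shoots and 95.7, 111 and 98.0 CPM in control shoots, a ratio of 3.10. Per 1000 coding bases, the deficient RNA level was 1451 CPM for Sobic.003G190100.1, 1127 for Sobic.001G198000.1, 721 for Sobic.001G094300.1, 479 for Sobic.004G141000.1 and 374 for Sobic.003G104600.1.

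At the edge of the choice, Sobic.001G193600.1, Sobic.006G091600.1 and Sobic.001G319500.1 had RNA ratios of 2.02, 2.05 and 2.05 and were included. Sobic.004G284700.1, Sobic.004G097300.1 and Sobic.004G032200.1, with ratios of 1.99, 1.98 and 1.97 and no overlap, were not. At the level threshold, Sobic.010G178900.1 was included at a mean of 5.19 CPM in deficient shoots and Sobic.004G233000.1, at 4.41 CPM, was not. Non-overlap of this direction held for 9.15% of the 14100 transcripts at or above the level threshold.

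Footprints were not used in the choice, but they came from the same powdered shoots, so that variation between shoots is shared with the RNA. Of the 46 transcripts, 43 passed the filter on low footprint counts and 27 rose past the threshold in deficient shoots (edgeR quasi-likelihood test over 16514 transcripts, Benjamini-Hochberg adjusted p under 0.05). Over all transcripts tested, 0.212% were called higher and 0.0121% lower. None of the 46 was called lower, a count of 0 in edgeR, in DESeq2 and at an unadjusted edgeR p under 0.05, and the 43 fold changes were all positive. Of the 43, 4 reached the filter's level of 1.14 CPM in fewer than 3 control libraries and so entered the test only with the help of the deficient group. These were Sobic.004G258500.1, Sobic.005G003200.1 and Sobic.010G178900.1, all called and with no control library at that level, and Sobic.007G141900.2, with 2 control libraries there, not called and named for this reason alone. Of the 39 that reached that level in all control libraries, 24 were called. Of the 16 tested but not called, 15 had an unadjusted edgeR p under 0.05. The share of all transcripts tested at that unadjusted p is not given here, so the 15 have no background beside them.

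The ratio of mean footprint CPM, deficient over control, had a median of 2.97 over the 44 transcripts with control footprints, beside an RNA median of 3.21 over all 46. Sobic.006G236300.1 and Sobic.006G227500.1, without control footprints, enter only the RNA median, with RNA ratios of 73.6 and 31.2. The median log2 fold change in footprints was 1.62 over the 43 and 1.57 over the 39 at the filter's level in all control libraries, beside 0.00082 over all transcripts tested. Without a filter, 40 of the 44 transcripts with control footprints above 0 had a mean footprint CPM at least 2 times higher in deficient shoots. That held for 0.521% of the transcripts at 5 RNA CPM or more that had control footprints. Every deficient shoot lay above every control shoot in footprints for 40 of the 46, against 3.11% of transcripts at that RNA level. Of the 21 transcripts with an RNA ratio of 4 or more, 18 were tested and 16 called in footprints, or 13 of 14 without those that entered the test through the deficient group. Lower RNA ratios gave 2 calls of 4 between 3 and 4, 7 of 11 between 2.5 and 3, and 2 of 10 below 2.5.

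**Figure D2:**
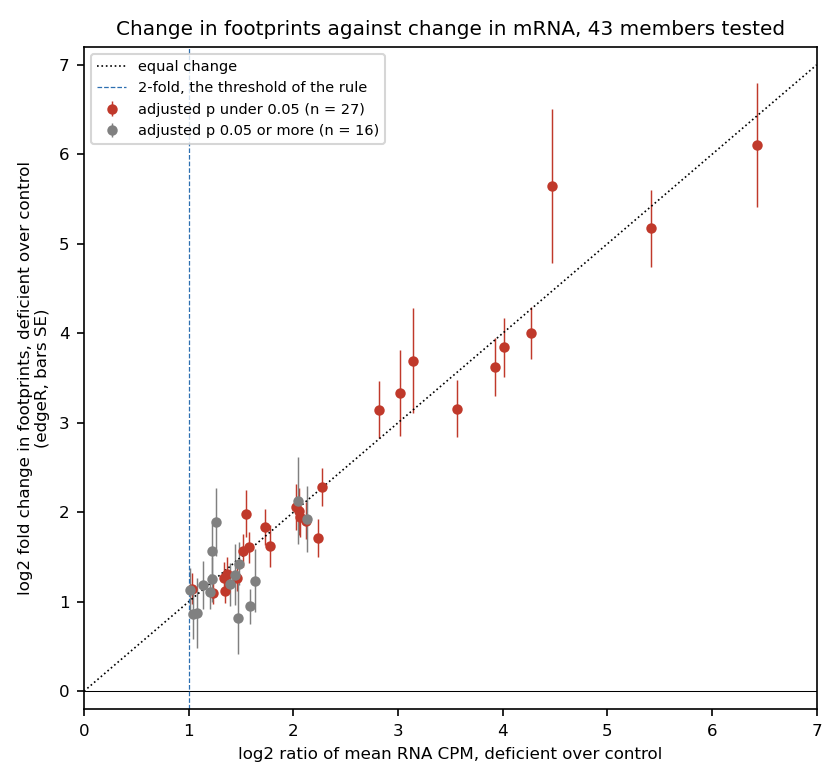
Log2 fold change in footprints (edgeR, bars are SE) against the log2 ratio of mean RNA CPM, deficient over control, for the 43 transcripts tested in footprints; the 27 called are red and the 16 not called grey. All points lie above 0 on the footprint axis and most lie near the dotted line of equal change. The dashed line marks the 2-fold RNA threshold that chose the transcripts, so all points lie to its right.

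The count of 27 depended on single shoots. Leaving out deficient shoot 1 raised it to 35, while leaving out deficient shoot 2 gave 16 and deficient shoot 3 gave 19. Leaving out a control shoot gave 15 for shoot 1, 10 for shoot 2 and 17 for shoot 3. The transcripts called in all 6 of these fits numbered 7, among them Sobic.001G379000.1 and Sobic.001G198000.1.

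Sobic.001G379000.1 had 18.6, 34.4 and 28.9 footprint CPM in deficient shoots and 2.27, 1.81 and 1.38 CPM in control shoots (edgeR log2 fold change 4.00 with SE 0.291 and adjusted p = 0.000875). This was the lowest adjusted p of the 46. Sobic.001G198000.1 had 143, 217 and 223 footprint CPM in deficient shoots and 40.7, 34.6 and 53.1 CPM in control shoots (edgeR log2 fold change 2.28 with SE 0.213 and adjusted p = 0.00199). It was also called in each of the 14 alternative fits.

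Sobic.004G258500.1 had 4.90, 20.8 and 23.9 footprint CPM in deficient shoots and 0.113, 0.271 and 0.346 CPM in control shoots on 1, 3 and 3 control counts. Its edgeR log2 fold change of 6.10 (SE 0.695) is a description, since it entered the test only through the deficient shoots, and its call was lost without any one of the control shoots. Sobic.001G493500.1 had 28.9, 85.1 and 81.8 footprint CPM in deficient shoots and 1.59, 1.81 and 2.42 CPM in control shoots (edgeR log2 fold change 5.17 with SE 0.430 and adjusted p = 0.00145), with the call lost without control shoot 1 or 3 (edgeR adjusted p = 0.0716 and 0.0861).

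Sobic.005G003200.1 had 2.84, 26.8 and 36.1 footprint CPM in deficient shoots and 0.454, 0.361 and 0.577 CPM in control shoots on 4, 4 and 5 control counts. It too entered the test only through the deficient shoots, and its edgeR log2 fold change of 5.65 (SE 0.860) is a description. The deficient shoots differed from each other by more than 10-fold in footprints, as they did in RNA. Among the fits that left out 1 shoot, the call held only in that without deficient shoot 1.

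Sobic.001G166401.1 had 122, 298 and 282 footprint CPM in deficient shoots and 19.1, 13.6 and 19.8 CPM in control shoots (edgeR log2 fold change 3.84 with SE 0.329 and adjusted p = 0.00145). Sobic.003G104600.1 had 271, 706 and 538 footprint CPM in deficient shoots and 49.8, 45.3 and 36.8 CPM in control shoots (edgeR log2 fold change 3.62 with SE 0.320 and adjusted p = 0.00147). Both lost the call without control shoot 3 (edgeR adjusted p = 0.0861 and 0.0868).

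For the abundant Sobic.003G190100.1, footprints were 3072, 3904 and 4516 CPM in deficient shoots and 1380, 1566 and 1996 CPM in control shoots (edgeR log2 fold change 1.31 with SE 0.186 and adjusted p = 0.0198). Sobic.001G094300.1 had 1972, 2203 and 2012 footprint CPM in deficient shoots and 1130, 755 and 856 CPM in control shoots (edgeR log2 fold change 1.27 with SE 0.177 and adjusted p = 0.0186). The groups did not overlap for either. The call on Sobic.003G190100.1 was lost without control shoot 1 or 2 or deficient shoot 2 or 3 (edgeR adjusted p = 0.0774 to 0.176). That on Sobic.001G094300.1 was lost without control shoot 2 or 3 or deficient shoot 2 or 3 (edgeR adjusted p = 0.0553 to 0.137).

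The smallest footprint changes were of several kinds. Sobic.002G300400.1 had 38.1, 97.0 and 97.7 RNA CPM in deficient shoots and 26.3, 31.1 and 26.5 CPM in control shoots, but 3.00, 8.48 and 12.0 footprint CPM in deficient shoots and 3.86, 6.42 and 4.04 CPM in control shoots (edgeR log2 fold change 0.82 with SE 0.396 and adjusted p = 0.739). Its deficient shoot 1 lay below all control shoots in footprints. Sobic.003G041900.2 had 2.21, 2.79 and 6.19 footprint CPM in deficient shoots and 1.59, 2.17 and 2.77 CPM in control shoots (log2 fold change 0.87, edgeR adjusted p = 0.722), and its groups overlapped as well.

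Sobic.004G141000.1 had 25.4, 66.8 and 94.9 footprint CPM in deficient shoots and 27.7, 24.4 and 32.8 CPM in control shoots (edgeR log2 fold change 1.24 with SE 0.355 and adjusted p = 0.515). Deficient shoot 1 was within the control range, and without it the log2 fold change was 1.604 and passed the threshold (edgeR adjusted p = 0.00480). Sobic.001G319500.1 had 19.9, 17.9 and 16.8 footprint CPM in deficient shoots and 6.92, 8.76 and 16.5 CPM in control shoots (log2 fold change 0.86, edgeR adjusted p = 0.626). Here control shoot 3 nearly met the deficient shoots, and without it the log2 fold change was 1.31 (edgeR adjusted p = 0.0496).

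Sobic.003G394600.1 had 19.9, 25.7 and 27.3 footprint CPM in deficient shoots and 16.8, 11.4 and 12.3 CPM in control shoots (edgeR log2 fold change 0.95 with SE 0.196 and adjusted p = 0.160). Its groups did not overlap. Sobic.004G318200.1, whose log2 fold change of 1.10 was also among the 5 lowest, was called (SE 0.121, edgeR adjusted p = 0.00397), with 50.6, 48.7 and 56.4 footprint CPM in deficient shoots and 24.8, 25.5 and 27.1 CPM in control shoots. The 3 shoots of each group lay within a narrow range of each other for this transcript. Its call was lost without control shoot 2 (edgeR adjusted p = 0.0596).

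Of the transcripts at the 2-fold edge in RNA, Sobic.006G091600.1 was called in footprints (edgeR log2 fold change 1.15 with SE 0.174 and adjusted p = 0.0290) and Sobic.001G193600.1 was not (edgeR log2 fold change 1.13 with SE 0.251 and adjusted p = 0.228). The call on Sobic.006G091600.1 was lost in all fits that left out 1 shoot except that without deficient shoot 1 (edgeR adjusted p = 0.0845 to 0.195). Without deficient shoot 1, Sobic.001G193600.1 had a log2 fold change of 1.36 (edgeR adjusted p = 0.0217).

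The 3 transcripts that failed the footprint filter were among the 5 with the highest RNA ratios. Sobic.006G227500.1, with a coding length of 321 bases, had 0, 3 and 2 footprint counts in deficient shoots and 0 in all control shoots. Its RNA counts in deficient shoots were 325, 1005 and 769. Set against a floor of 3 control counts over the group, its 5 deficient footprint reads gave a ratio of 2.05. That ratio leaves out the counting error of the 5 reads and is not a lower bound. The ratio of footprint CPM to RNA CPM over the deficient shoots was 0.00496, and 157 of 14091 transcripts at 5 RNA CPM or more, or 1.11%, had a lower one. At 43.3 ± 19.7 RNA CPM (SD, n = 3 deficient shoots) this mRNA was 31.2-fold more abundant than in control shoots, and almost no footprints were counted on its annotated coding sequence.

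Sobic.006G236300.1 had 0, 6 and 8 footprint counts in deficient shoots and 0 in all control shoots. Against the same floor the ratio was 5.74, again without the counting error of the deficient reads. Sobic.001G293450.1 had 0, 25 and 25 footprint counts in deficient shoots and 0, 0 and 1 in control shoots. The ratio of its sums was 61.5, with an exact 95% counting interval of 10.5 to 2477. In all 3 transcripts deficient shoot 1 had no footprint count, so the groups overlapped.

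The deficient shoots differed among themselves in these transcripts. In RNA, deficient shoot 1 was the lowest of the deficient shoots for 43 of the 46, against 36.7% of the transcripts at 5 RNA CPM or more. In footprints it was the lowest for 41 of the 46, against 31.8%. The median ratio of deficient shoot 1 to the mean of shoots 2 and 3 was 0.620 in RNA and 0.558 in footprints, whereas over the transcripts at that RNA level the medians were 1.00 and 0.975. The median coefficient of variation among deficient shoots was 25.6% in RNA, against 6.91% over the transcripts at that level, and 32.8% in footprints, against 15.7%. Among control shoots it was also above that of the other transcripts, at 11.4% against 7.19% in RNA and 19.4% against 12.6% in footprints. Deficient shoots 2 and 3 differed by a median of 4.63% of their mean in RNA and 15.6% in footprints.

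**Figure D3:**
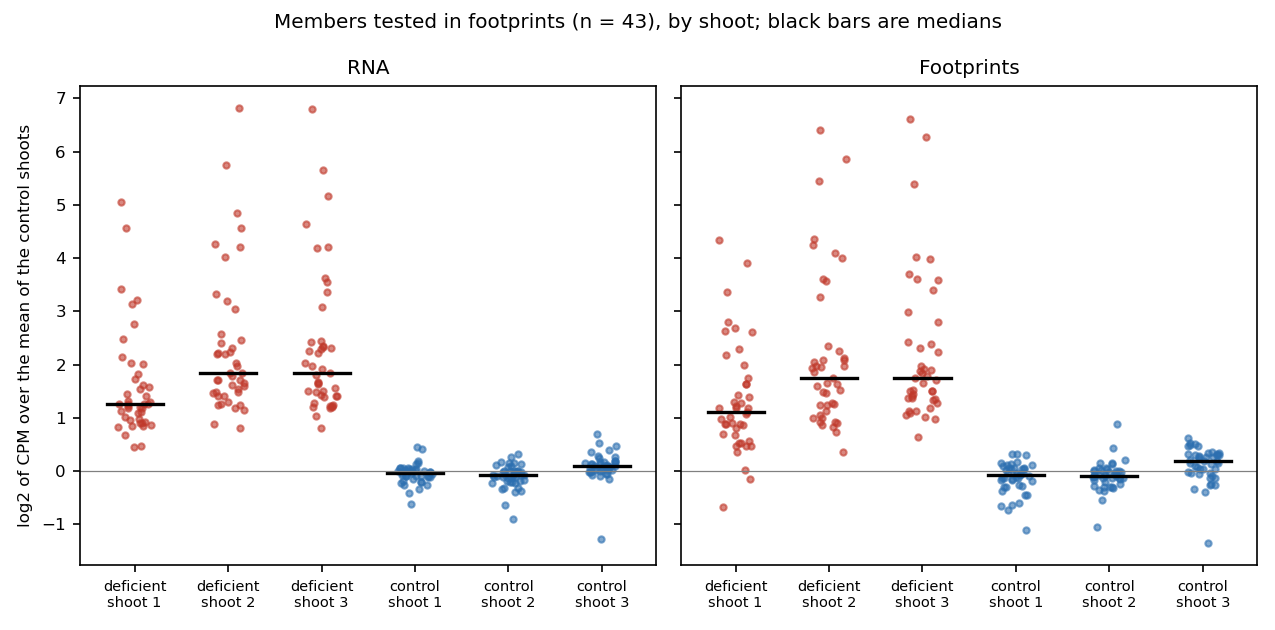
Log2 of the CPM of each transcript in each shoot over its mean in the control shoots, for the 43 transcripts tested in footprints, in RNA (left) and footprints (right); each point is 1 transcript and each black bar the median. In both panels the bar of deficient shoot 1 stands below those of deficient shoots 2 and 3 and above those of all control shoots.

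Measured from the control mean, deficient shoot 1 had gained a median of 51.1% of what shoots 2 and 3 had gained in RNA, with quartiles of 36.7% and 67.2%, and 41.2% in footprints, with quartiles of 21.5% and 58.9%. In RNA 4 transcripts were under 25%, namely Sobic.005G003200.1 (2.88%), Sobic.001G293450.1 (4.68%), Sobic.002G300400.1 (14.6%) and Sobic.001G453100.1 (17.0%), the last of them chosen after its values were seen. A further 18 lay between 25% and 50%, 19 between 50% and 75%, and 2 between 75% and 100%. Most of the transcripts thus shared the low place of deficient shoot 1, while the size of the gap varied widely between them.

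In 3 transcripts shoot 1 stood above the mean of shoots 2 and 3 in RNA, which were Sobic.001G319500.1, Sobic.003G102800.1 and Sobic.004G028200.1, the last 2 chosen after their values were seen. Sobic.003G102800.1 had 13.1, 8.06 and 10.2 RNA CPM in deficient shoots and 3.62, 2.34 and 7.09 CPM in control shoots. Its footprints were 24.6, 25.4 and 13.1 CPM in deficient shoots and 6.69, 2.98 and 8.88 CPM in control shoots (edgeR log2 fold change 1.89 with SE 0.377 and adjusted p = 0.130). Sobic.004G028200.1, with a coding length of 330 bases, was almost level across deficient shoots in RNA, at 33.6, 34.0 and 32.5 CPM, against 15.6, 14.4 and 12.9 CPM in control shoots.

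The sample descriptions number the deficient shoots 9, 13 and 15 and the control shoots 3, 1 and 7, and give these numbers no meaning. Across treatments the closest numbers are 9, of deficient shoot 1, and 7, of control shoot 3. Control shoot 3 was the highest control shoot in RNA for 28 of the 46, against 35.8% of transcripts at 5 RNA CPM or more. The RNA ratios that follow are descriptions, since they use the values that chose the transcripts and the choice requires each to be above 1. Deficient shoot 1 over control shoot 3 had a median RNA ratio of 2.26 and was at least 2 for 29 of the 46. Deficient shoots 2 and 3 over control shoots 1 and 2 had a median of 3.84 over the 45 transcripts with control counts there, and was at least 2 for all 45. In footprints these medians were 1.91 over 44 transcripts and 3.43 over 43. Whether the numbers mark a batch was not tested, and with 1 shoot per treatment in that pair no test can be made within it.

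Footprints per mRNA, the ratio of footprint CPM to RNA CPM with a prior count of 0.5, varied between the transcripts much more than between the treatments. Over the 43 tested in footprints, the ratio ran from 0.0957 to 1.97 in deficient shoots (median 0.703) and from 0.154 to 2.17 in control shoots (median 0.782). Over the 13538 transcripts at 5 RNA CPM or more that were tested, the median was 0.774 in deficient shoots and 0.807 in control shoots. Of the 43, 38 lay between the 5th and 95th percentiles of those transcripts in deficient shoots, which were 0.194 and 1.88. The RNA values that chose the transcripts enter this ratio, so no test is given.

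**Figure D4:**
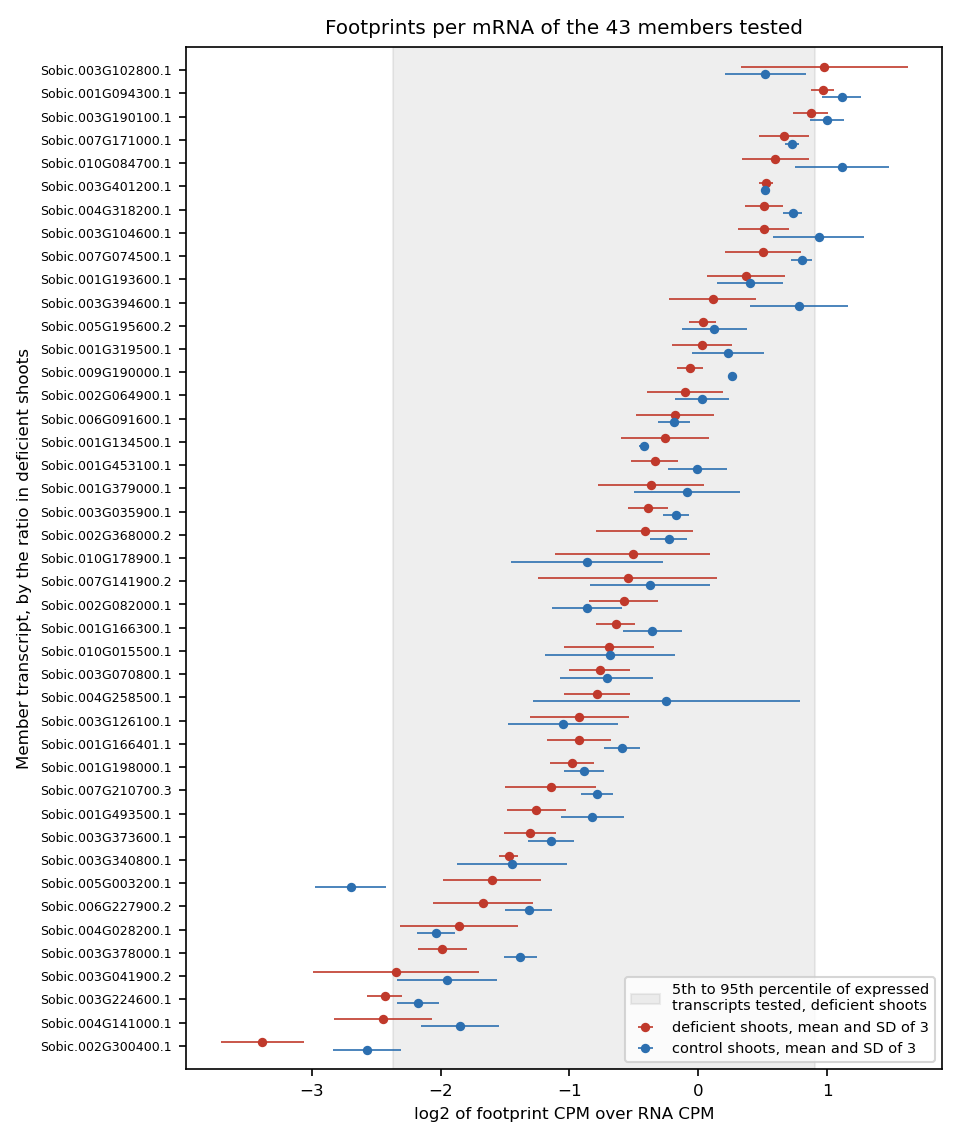
Log2 of footprint CPM over RNA CPM for the 43 transcripts tested in footprints, as mean and SD of 3 deficient shoots (red) and 3 control shoots (blue), ordered by the ratio in deficient shoots; the grey band holds the 5th to 95th percentile of expressed transcripts in deficient shoots. Red and blue lie close together in most rows, the largest gaps being those of Sobic.005G003200.1, to higher values in deficient shoots, and of Sobic.002G300400.1, to lower ones.

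The log2 ratio, deficient minus control, had a median of -0.19 over the 43, with quartiles of -0.34 and -0.03, beside -0.07 over the 13538. With library totals as the scale, the median log2 ratio of footprints alone was -0.09 over all transcripts tested in footprints, and that of RNA alone was -0.02 over the transcripts at 5 RNA CPM or more. Footprints per mRNA differed by a log2 value within 0.5 for 36 of the 43, against 96.6% of the 13538. The ratios of the groups did not overlap for 8 of the 43, against 8.04% of the 13538. Of the 7 transcripts that differed by 0.5 or more, 6 were lower in deficient shoots, among them Sobic.002G300400.1, Sobic.003G394600.1, Sobic.004G141000.1 and Sobic.004G258500.1.

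Sobic.002G300400.1 had ratios of 0.0808, 0.0880 and 0.123 in deficient shoots and 0.149, 0.207 and 0.154 in control shoots, a log2 difference of -0.81. All its deficient shoots lay below its control shoots. Sobic.005G003200.1 had 0.447, 0.273 and 0.293 in deficient shoots and 0.187, 0.154 and 0.127 in control shoots, a log2 difference of 1.10, on control footprints of 4 or 5 counts per library. Sobic.003G401200.1, chosen after its values were seen as one that hardly differed, had 1.43, 1.39 and 1.497 in deficient shoots and 1.45, 1.45 and 1.40 in control shoots.

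The transcripts had no narrow range of coding length. The median was 1152 bases, the quartiles were 930 and 1573 and the range was 267 to 2754, beside a median of 1224 and quartiles of 779 and 1809 for the 14091 transcripts at 5 RNA CPM or more with a coding length. By the chromosome number in their IDs, 13 of the 46 (28.3%) were on chromosome 3 and 11 (23.9%) on chromosome 1, where 15.1% and 19.0% of the 14100 transcripts at that level lay. None was on chromosome 8, which held 4.73% of those transcripts, and 1 was on chromosome 9, which held 8.11%.

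Pairs of these transcripts within 5 places of each other in ID order numbered 2. Sobic.001G166300.1 and Sobic.001G166401.1 were next to each other and had coding lengths of 1032 and 1071 bases. Sobic.001G166300.1, named here for that position after its values were seen, had 39.4, 52.7 and 53.5 RNA CPM in deficient shoots and 11.4, 9.91 and 12.2 CPM in control shoots, a ratio of 4.34. Its footprints rose too, to 27.5, 34.7 and 30.5 CPM in deficient shoots against 8.05, 7.14 and 11.4 CPM in control shoots (edgeR log2 fold change 1.91 with SE 0.204 and adjusted p = 0.00349). Deficient shoot 1 had gained 67.4% of the gain of shoots 2 and 3 in its RNA and 54.5% in that of Sobic.001G166401.1. The next ID, Sobic.001G166500.1, with a coding length of 1038 bases, had 1.33, 1.19 and 1.36 RNA CPM in deficient shoots and 0.426, 0.402 and 0.428 CPM in control shoots, a ratio of 3.08 below the level threshold. How reads that match several transcripts were counted is not given in the sources used here, so the values of these neighbours are uncertain if they share sequence.

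The other pair was Sobic.006G227500.1, with almost no footprints, and Sobic.006G227900.2, which lay 5 places further and had 9.23, 11.7 and 10.4 RNA CPM in deficient shoots against 3.41, 3.08 and 5.07 CPM in control shoots. The 4 transcripts between them were all below 1 RNA CPM in every shoot. Footprints of Sobic.006G227900.2 were 2.05, 4.24 and 3.79 CPM in deficient shoots and 1.36, 1.36 and 1.73 CPM in control shoots (edgeR log2 fold change 1.30 with SE 0.345 and adjusted p = 0.399), without overlap.

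Among all footprint counts, 35 transcripts were called higher in deficient shoots. The 27 that belong to the 46 made up 77.1% of those 35 and 58.7% of the 46. These shares are descriptions, since 3 of the 27 entered the test only through the deficient shoots. The other 24 reached the filter's level in all control libraries. Of the others, 2 were the neighbouring transcripts left out of the choice, with RNA ratios of 2.92 for Sobic.001G470600.1 and 2.36 for Sobic.001G470800.1 and footprint log2 fold changes of 1.38 and 1.23.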

How the data were processed

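Whole shoots of 3 sulfur-deficient and 3 control seedlings were measured by RNA-seq and Ribo-seq. The deposited tables hold raw counts per transcript: RNA-seq read counts, and footprint counts placed at the ribosomal P site and summed over the coding sequence, beside a coding length. Per the submitters' processing notes the tools included Bowtie2 and STAR, with no role stated for either. Not given in the sources used here: the counting program, genome build, annotation, strand setting and P-site offsets. Columns of the 2 tables share names, and the assay follows from the title of each table and the coding length beside the footprint counts.

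CPM is the count over the column total times 1000000. Footprints were fitted across all transcripts with edgeR 4.0.16 in R 4.3.3, with TMM factors, filterByExpr (minimum count 10, minimum total 15), the robust quasi-likelihood test and Benjamini-Hochberg adjustment over all transcripts tested, with treatment as the only term. The SE is the log2 fold change over the root of F. The fit was tested on simulated counts. Floors are 3 counts over a group. Chi-square statistics between libraries of a group were 3.14 to 20.3 per degree of freedom, above sampling noise, so each library is 1 sample.

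The transcripts, the rule and the lists were chosen with earlier results of these data known. Named were the 8 highest RNA ratios, the 6 highest deficient RNA CPM, the 5 highest and 5 lowest footprint fold changes, and the 3 nearest on each side of the fold threshold. Runs of 3 or more close IDs were also to be named, and there were none. All 22 lists of gene functions, and the sulfur-response promoter motifs, were void, since 0 IDs matched the reference table (assembly Sorghum_bicolor_NCBIv3), and no sequences are shown. Alternatives were DESeq2 1.42.0, other scaling, filters and thresholds, a replicate block and left-out shoots.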

Additional observations from a re-analysis of the deposited data

How the results depend on the processing

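The choice of transcripts gave 46 with the settings used. It gave 101 at a 1.5-fold threshold, which held all 46, 25 at a 3-fold threshold, and 76 without control shoot 3 and deficient shoot 1, which also held all 46. With 1 shoot left out it gave 43 to 59. The 1.5-fold and 3-fold changes follow from the threshold itself; the cause of the rise to 76 was not tested. Counts of transcripts called higher in footprints were 27, and 16 with at least 50 counts in each group mean. That filter removes transcripts by construction and left some named ones with no value. Removal was not the whole of the drop. Sobic.003G190100.1 and Sobic.006G091600.1 kept a value there and lost the call (edgeR adjusted p = 0.0518 for each). The counts were 10 to 35 with 1 shoot left out, lowest without control shoot 2 and highest without deficient shoot 1. DESeq2 called 38. In no setting was any of the 46 called lower in footprints. The median footprint log2 fold change was 1.62, and 1.54 to 1.81 with 1 shoot left out. The median log2 change in footprints per mRNA was -0.19, and -0.25 to -0.16 with 1 shoot left out; its alternatives were chosen after seeing the data. Deviations of shoots that share a replicate number across the treatments had correlations of -0.03, -0.03 and 0.097 in footprints. In RNA they were -0.16, 0.18 and -0.09. With 3 shoots per group these values cannot decide whether the replicate numbers pair the shoots. With the replicate block 27 were called higher; the calls on Sobic.001G094300.1 and Sobic.006G091600.1 were lost (edgeR adjusted p = 0.0544 and 0.0633). Of the 17 named transcripts fitted in footprints under the alternatives, 0 changed direction in any fit that gave a value. With no filter on low counts the calls on Sobic.004G258500.1, Sobic.001G493500.1, Sobic.005G003200.1, Sobic.001G166401.1 and Sobic.003G104600.1 were lost (edgeR adjusted p = 0.110 to 0.600), though their log2 fold changes remained 3.62 to 6.11. The number of shoots and the depth of the footprint libraries limit how small a change can be called.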

Other observations

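A further 5 transcripts met the level and fold conditions in RNA but had overlapping groups. In Sobic.003G428800.1 deficient shoot 1 and control shoot 3 stood apart from all other shoots, with 102, 1.41 and 0.572 RNA CPM in deficient shoots and 0.782, 0.469 and 29.3 CPM in control shoots. The same shoots stood apart in its footprints, at 73.5, 2.34 and 0.757 CPM in deficient shoots and 2.16, 2.53 and 22.5 CPM in control shoots. Sobic.003G237600.1 had the same pattern, with 37.8, 0.920 and 1.00 RNA CPM in deficient shoots and 1.35, 1.27 and 14.9 CPM in control shoots. These are the shoots that the sample descriptions number 9 and 7. Sobic.003G064300.2 and Sobic.006G253900.1 also had their highest deficient RNA level in shoot 1 and their highest control level in shoot 3.

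The fifth, Sobic.002G300300.2, lies next in ID order to Sobic.002G300400.1, the transcript with the lowest footprint change among the 46. It had 4.30, 13.2 and 14.2 RNA CPM in deficient shoots and 4.26, 3.95 and 4.40 CPM in control shoots. Its footprints stood at 3.00, 1.56 and 1.89 CPM in deficient shoots and 3.06, 4.79 and 2.77 CPM in control shoots (log2 fold change -0.66, SE 0.338, edgeR adjusted p = 0.747). In both neighbours deficient shoots 2 and 3 were high in RNA and shoot 1 was near the control level, and in neither did footprints pass the threshold. Whether these genes share reads was not tested.

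A total of 6 transcripts were called higher in footprints without belonging to the 46 or to the pair left out. Of these, 5 had RNA ratios of 1.61 to 1.87, below the 2-fold threshold. Sobic.002G262500.1 had a ratio of 11.6 on a mean of 0.114 RNA CPM in control shoots. Its mean of 1.32 RNA CPM in deficient shoots was below the level threshold. Its footprints were 2.05, 3.57 and 2.02 CPM in deficient shoots and 0.454, 0.181 and 0.231 CPM in control shoots. No control library reached the footprint filter's level of 1.14 CPM, so it entered the test only through the deficient shoots and its call is a description.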
